A study of Homo sapiens with 18 samples.

Results

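A3B-eGFP sites called only with PMA are the 3999 of 7122 regions (56.2%) in the anti-GFP ChIP–seq list of doxycycline-induced, PMA-treated MCF10A cells that overlapped, by 1 bp or more, no region called in the induced cells given DMSO and none called in the uninduced cells given DMSO. They were selected from measured values, since the peak calls of these 3 libraries chose them, so their absence from the DMSO lists is no result, and nothing about their ChIP–seq strength is tested here. The DRIP–seq lists took no part in the choice and came from other cells.

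The study asked how the DNA cytosine deaminase APOBEC3B (A3B) relates to R-loops, and whether both change when cells are stimulated. MCF10A cells are nontumorigenic epithelial cells of the breast, and PMA is a phorbol ester that activates protein kinase C. For ChIP–seq, MCF10A-TREx-A3B-eGFP cells, which carry A3B fused to eGFP under a doxycycline-inducible promoter, were precipitated with an anti-GFP antibody in 3 conditions, namely doxycycline (1 µg/ml for 24 h) with PMA (25 ng/ml) for 2 h, doxycycline with DMSO, and no doxycycline with DMSO. For DRIP–seq, the S9.6 antibody against DNA:RNA hybrids was used on A3B KO and WT MCF10A cells treated with DMSO, with PMA for 2 h or with PMA for 6 h. The KO line was derived with a guide that cuts in both genes of the pair APOBEC3A and APOBEC3B and leaves them fused, the DRIP–seq cells carried no A3B-eGFP, and the ChIP–seq cells were engineered to make A3B-eGFP on induction. IPs were pooled for each ChIP–seq library. Each condition was 1 library, so no difference between conditions has a replicate check, no p-value is given, and every interval is a 95% Wilson interval that covers counting error alone. No uninduced library with PMA was among the samples, so anti-GFP background that appears with PMA cannot be told apart from A3B-eGFP at the 3999 sites.

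An R-loop is a DNA:RNA hybrid formed when nascent RNA anneals to its template and leaves the other DNA strand unpaired, and it is found at transcribed genes, often at starts and past ends. A3B deaminates cytosine in single-stranded DNA and acts best where the cytosine follows thymine, in 4-base words made of a purine, TC, and then A or T. PMA acts through protein kinase C and the MAP kinases on a first wave of genes, the immediate early genes. Their products include the FOS and JUN subunits of AP-1. AP-1 binds TGACTCA, which reads TGAGTCA on the other strand.

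The sequences of the sites that the results turn on are of 2 kinds. The first are from 4 of the 5 genes with the strongest sites within 10 kb past a gene's end. Sites in the body of another protein-coding gene or within 2 kb of a start were not taken for these. The sites were clear of annotated exons and more than 10 kb from a region called without doxycycline. Each is given as the 150 bases around the middle of the region (hg38, plus strand). Capitals mark the words preferred by A3B, as described above, or their reverse complements.
PLAUR, chr19:43644985-43645134: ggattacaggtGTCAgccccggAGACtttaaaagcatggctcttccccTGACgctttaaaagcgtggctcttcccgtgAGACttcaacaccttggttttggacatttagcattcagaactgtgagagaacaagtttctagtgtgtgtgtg
NR4A1, chr12:52060454-52060603: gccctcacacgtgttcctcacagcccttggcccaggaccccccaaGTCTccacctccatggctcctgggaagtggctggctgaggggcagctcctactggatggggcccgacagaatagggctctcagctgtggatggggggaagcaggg
EGR1, chr5:138470292-138470441: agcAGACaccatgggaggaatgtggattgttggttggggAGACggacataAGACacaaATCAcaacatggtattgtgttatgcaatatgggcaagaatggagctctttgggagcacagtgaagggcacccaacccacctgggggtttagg
ACTB, chr7:5524269-5524418: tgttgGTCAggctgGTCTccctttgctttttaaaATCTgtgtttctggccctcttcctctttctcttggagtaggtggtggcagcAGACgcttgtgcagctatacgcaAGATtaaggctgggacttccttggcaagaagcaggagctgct
These 4 stretches held 4, 1, 4 and 5 such words in the order shown, and lay 1036, 1021, 1063 and 2066 bp past the annotated ends of their genes.

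The second kind are sites with no other site within 1 kb and with an AP-1 motif near the middle of the region. Capitals mark TGANTCA. The motif reads the same on both strands apart from its centre.
Intergenic site, chr6:30810986-30811135: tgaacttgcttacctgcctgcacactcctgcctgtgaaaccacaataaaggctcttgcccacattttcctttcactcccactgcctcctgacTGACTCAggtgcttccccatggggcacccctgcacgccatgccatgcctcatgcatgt
ERAP1, chr5:96796571-96796720: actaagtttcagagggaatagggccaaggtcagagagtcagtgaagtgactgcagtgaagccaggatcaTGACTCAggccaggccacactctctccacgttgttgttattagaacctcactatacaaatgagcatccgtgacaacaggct
The ERAP1 site lay inside this gene, which encodes an aminopeptidase and held 11 sites in all. Each of these stretches held 1 copy of the motif. The shares of all sites that hold the motif are given further on.

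The PMA-only sites were of modest strength. Fold enrichment divides the pileup at the summit by the local background, in calls made against the input. For these sites it ran between 1.64 and 12.6 with a median of 3.02. Their median pileup was 32 fragments, and their median −log10 q was 4.59. DMSO-only regions, the 2861 called in induced cells with DMSO that overlapped neither other list, had a median fold of 2.95, a median pileup of 32 and a median −log10 q of 4.06. The 1520 PMA regions shared with DMSO and not called without doxycycline had a median fold of 3.05 and a median pileup of 47. At least 5 in −log10 q was reached by 1807 PMA-only sites (45.2%) and by 1087 DMSO-only regions (38.0%).

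The rule's edge passed through regions of like strength. The 83 sites with a gap of at most 50 bp to the nearest region of either other list had a median fold of 3.42, and the 80 regions left out for an overlap of at most 50 bp had a median fold of 3.07. The closest site inside was 2 bp away from a region of another list, with a fold of 3.40, and the 3 closest outside overlapped by 1 bp, with folds of 2.84, 3.04 and 2.23. Of all sites, 804 lay within 1 kb of a region of either other list, and the median distance to the nearest DMSO region was 24640 bp.

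The sites came in runs. Joining sites no more than 1 kb apart gave 2414 runs, of which 1773 were single sites and 116 held 5 sites or more. The 949 sites in the longer runs (23.7% of all) were stronger, with a median fold of 3.20 and a median −log10 q of 6.99, against 2.998 and 4.06 for single sites. The longest run, of 41 sites, covered 26751 bp along PLAUR, the gene of the urokinase receptor, and past its end. The next, of 31 sites, covered 20294 bp at LAMB3, the gene of the laminin-332 beta chain, and the third, of 30 sites, covered 18146 bp over parts of LAMB3 and CAMK1G. Neither the DMSO list nor the list without doxycycline held a region within these 3 runs. This is largely set by the rule and is no result, since runs join only sites that overlapped no such region. The DMSO list held 4 regions along LAMB3 and the 10 kb past its end, some of them between the runs of 31 and 30 sites. Other long runs lay in ITPKC and COQ8B (21 sites), NDRG1 (20), CCN4 (16) and LAMA3 (14 and 13). A run of 17 sites lay mostly before the start of TMEM184B, and a run of 16 lay past the end of LMO7.

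Of the 10 strongest sites by −log10 q, 6 lay in LAMB3 or in the neighbouring CAMK1G, and the others lay past the ends of PLAUR, NR4A1 and EGR1 and in CCDC200. The first, at −log10 q 95.4 with a pileup of 188 and a fold of 7.61, lay inside CAMK1G, a kinase gene that faces LAMB3, at 5323 bp past the end of LAMB3. The second lay inside LAMB3, 17708 bp from its start, with a pileup of 194, a fold of 5.86 and a −log10 q of 78.8. The third lay 1036 bp past the end of PLAUR, with a pileup of 127, a fold of 9.22 and a −log10 q of 74.8. NR4A1, an immediate early nuclear receptor gene, had a site 1021 bp past its end with a pileup of 156 and a fold of 5.85, and EGR1, an immediate early zinc finger gene, had a site 1063 bp past its end with a pileup of 150 and a fold of 5.50. Reads were not separated by strand in these lists, so a site where genes face each other cannot be assigned to either.

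The CCDC200 site, with a pileup of 87, a fold of 12.6 and a −log10 q of 64.1, lay 575 bp from a region called without doxycycline, and it was also among the 10 strongest by fold. The folds of those 10 were between 9.45 and 12.6, and each lay within 2177 bp of a region called without doxycycline, with the closest gap at 27 bp. They fell on chromosome 14 beside the immunoglobulin heavy chain genes (4 sites), in CCDC200 on chromosome 17 (2), beside CWH43 on chromosome 4 (2), in RASA4 on chromosome 7 and beside BSPH1 on chromosome 19. In all, 626 sites lay within 10 kb of a region called without doxycycline, and their part in the results is given by the values without them below.

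R-loop regions overlapped the sites most at 2 h of PMA. In the A3B KO line, 24.9% of the 3999 sites overlapped a DRIP region with DMSO (95% interval 23.6 to 26.3), 40.3% at PMA 2 h (38.8 to 41.8) and 31.6% at PMA 6 h (30.2 to 33.1). In the WT line the shares were 25.0% with DMSO (23.7 to 26.3), 36.2% at 2 h (34.7 to 37.7) and 29.8% at 6 h (28.4 to 31.2). The same shares over the whole PMA list, which includes the sites, were 36.3%, 45.9% and 42% in KO and 35.6%, 42.7% and 41.8% in WT, so the sites lay under the list in all 6 DRIP conditions, by the narrowest margin at 2 h in both lines. Any of the 6 DRIP lists held 2237 sites (55.9%), against 64.8% of the whole PMA list, and all 6 held 504 (12.6%), against 20.6% of the whole list.

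DMSO-only regions were lowest at 2 h. In KO, 40.8% overlapped a DRIP region with DMSO, 34.5% at 2 h and 36.8% at 6 h, and in WT the shares were 38.2%, 29.7% and 38.3%. The intervals of the PMA-only sites and the DMSO-only regions did not overlap in any of the 6 conditions, but they treat neighbouring sites as independent, and with 1 library a condition the difference has no test. With 1 site per run, the KO shares at 6 h were 31.5% and 34.4%, a smaller gap. The 6 h lists were the longest (169126 regions in KO and 165877 in WT, against 120428 and 111771 at 2 h), and the sites' share at 6 h was still lower than at 2 h in both lines.

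Read site by site, gains at 2 h outnumbered losses. In KO, 1780 sites overlapped a DRIP region at 2 h, with DMSO or in both, and 783 of them (43.99%, interval 41.7 to 46.3) had it at 2 h and not with DMSO, against 169 (9.49%) with DMSO and not at 2 h. In WT, 668 of 1667 (40.1%, 37.7 to 42.4) had it at 2 h alone and 220 (13.2%) with DMSO alone. Over the whole PMA list the shares at 2 h alone were 30.6% in KO and 28.6% in WT. DMSO-only regions had 221 of 1389 (15.9%) at 2 h alone in KO and 170 of 1262 (13.5%) in WT, with 401 (28.9%) and 412 (32.6%) with DMSO alone. Lists shortened to equal length by −log10 q gave 38.2% of PMA-only sites in KO and 34.7% in WT at 2 h alone, and 11.3% and 9.83% of DMSO-only regions.

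Of the 1146 sites that gained a DRIP region at 2 h in either line, 305 gained it in both. Gains in both lines were not counted over the whole PMA list, so 305 has no background here. Of the 783 KO gains, 295 (37.7%, 34.3 to 41.1) also overlapped a DRIP region at 6 h, and of the 668 WT gains 271 (40.6%, 36.9 to 44.3) did. Over the whole PMA list the same shares were 42.3% in KO and 46.8% in WT. Overlapping intervals of the lines do not show that they act alike. A DRIP region in all 3 treatments was found at 699 sites in KO (17.5%) and 653 in WT (16.3%). These shares were not taken over the whole PMA list either.

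Where a DRIP region was called at both DMSO and 2 h, its fold was more often higher at 2 h at PMA-only sites. This held for 586 of 828 sites in KO (70.8%, interval 67.6 to 73.8), with a median ratio of 2 h over DMSO of 1.28, and for 497 of 779 in WT (63.8%, 60.4 to 67.1), with a median ratio of 1.16. DMSO-only regions had 324 of 767 in KO (42.2%) and 191 of 680 in WT (28.1%), with median ratios of 0.934 and 0.783. At least 2 times the DMSO fold was reached at 143 PMA-only sites in KO and 87 in WT. The counts were 64 and 43 for the shared regions and 19 and 5 for DMSO-only regions. The fold of a list can move with its depth, and the median folds over all regions were 5.01 at 2 h and 4.31 with DMSO in KO, and 4.64 and 4.32 in WT.

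The share with a DRIP region at 2 h alone was highest in the longest class of runs. Of sites in runs of 5 or more with either DRIP region, 270 of 432 in KO (62.5%, interval 57.8 to 66.9) and 233 of 389 in WT (59.9%, 55.0 to 64.6) had it at 2 h alone. Of single sites, 234 of 696 in KO (33.6%, 30.2 to 37.2) and 215 of 658 in WT (32.7%, 29.2 to 36.4) did, and of sites in runs of 2 to 4 the shares were 42.8% in KO (39.0 to 46.6) and 35.5% in WT (31.8 to 39.3). A DRIP region with DMSO was found at 17.1% of sites in runs of 5 or more in KO and 16.4% in WT, at 29.2% and 31.3% in runs of 2 to 4, and at 26.1% and 25.0% of single sites. Sites of 1 run share a gene and are not independent, and with 1 site kept for each run the share at 2 h alone was 36.7% in KO and 34.0% in WT, against 17.3% and 14.3% for DMSO-only regions treated the same way.

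Inside a gene of any kind lay 71.3% of the sites, near the 69.4% of the whole PMA list. By the middle of the region, 1942 sites (48.6%) were in the body of a protein-coding gene, 644 (16.1%, against 15.9% of the whole list) within 2 kb of a start, 699 (17.5%) outside these and within 10 kb past an end, 127 (3.18%) within 10 kb before a start and 587 (14.7%) farther away. DMSO-only regions were more often near a start (25.9%) and less often in a gene body (34.3%), with 16.2% past an end. The share past an end over the whole PMA list was 16.5%, near the 17.5% of the sites. Counted whatever other gene lay there, 38.3% of PMA-only sites, 41.6% of DMSO-only regions and 53.4% of the shared regions lay within 10 kb past a gene's end, against 17.6% of regions also called without doxycycline and 15.4% of the WT 2 h DRIP regions. A place past gene ends was thus common to the induced lists and not particular to the PMA-only sites, which were in fact less tightly gathered there: 9.63% lay within 2 kb past the nearest end, against 16.04% of DMSO-only regions, and 8.58% lay 5 to 10 kb past it, against 6.50%.

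**Figure D1:**
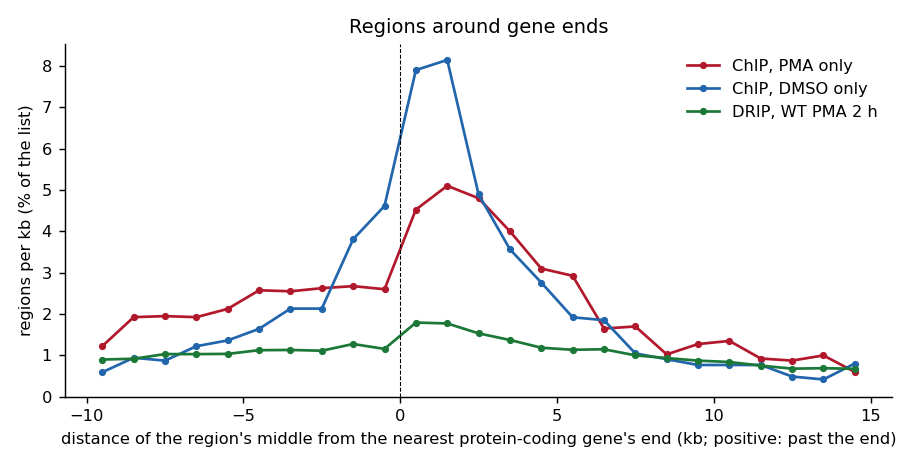
Percent of the regions of each list (vertical axis) in each kb around the nearest protein-coding gene's annotated end (horizontal axis, kb, positive past the end). PMA-only sites reach 5.10% in the second kb past the end and stand at 2.93% in the sixth, DMSO-only regions reach 8.14% and stand at 1.92%, and WT PMA 2 h DRIP regions stay at or under 1.79%.

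The strongest sites were oftener past an end. Of the 20 sites with the highest −log10 q, 12 lay within 10 kb past an end, and of the highest 100 and 400, 47 and 187 (46.8%) did, against 38.3% of all sites. They included TIMP1, an inhibitor of metalloproteases (a fold of 6.77 at 1327 bp past the end and 6.87 at 582 bp), JUNB, an AP-1 subunit (5.83 at 1527 bp), FOS, another (5.79 at 1197 bp), and LAMA3, the laminin-332 alpha chain (8.55 at 3003 bp). The highest 20 held neighbouring sites at LAMB3 and CAMK1G, PLAUR and TIMP1, which are not independent. With sites near a start or in another gene's body left out, 4 of the 20, 23 of the 100 and 98 of the 400 (24.5%) lay past an end, against 17.5% of all sites. By place, sites past an end had 41.7% at 2 h alone in KO and 40.1% in WT, sites in gene bodies 51.7% and 45.6%, sites near starts 31.7% and 30.4%, and sites far from genes 36.2% and 34.7%, against lower shares of DMSO-only regions in the same places (12.6% and 10.4% past ends, 16.4% and 14.9% in bodies, 13.8% and 11.8% near starts, 22.9% and 15.3% far from genes). Before starts the WT shares were 43.2% of PMA-only sites (interval 29.7 to 57.8) and 42.1% of DMSO-only regions (23.1 to 63.7).

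Most genes that held many sites had more DRIP regions at 2 h than with DMSO. A site lay inside, or within 2 kb before the start of, 1146 of 19970 protein-coding genes (5.74%), and 130 genes (0.651%) held 5 or more. Of these 130, 106 had more DRIP regions at 2 h than with DMSO in KO and 16 had fewer (81.5% and 12.3%), and in WT 97 had more and 25 fewer (74.6% and 19.2%). Of all genes with any DRIP region, 48.5% in KO and 45.4% in WT had more. The median number of DRIP regions in the 130 genes was 6, 12.5 and 10.5 in KO and 5.5, 10 and 9.5 in WT with DMSO, at 2 h and at 6 h. Of the 33 genes with 5 or more DMSO-only regions, 9 had more at 2 h in KO and 20 had fewer, and 14 had more in WT and 15 fewer. A longer list adds regions to long genes, and the 2 h lists were longer than the DMSO lists in both lines.

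The 10 genes with most sites held 402 of the 3999 (10.1%). LAMA3 had 72, LMO7, which encodes an actin and junction scaffold, had 70, NDRG1, a hypoxia-responsive gene, had 67, LAMB3 had 58 and PLAUR had 37. The annotated RAD9A gene had 32, over a span of 80.5 kb that takes in the unnamed gene ENSG00000256514, which had 22, so those sites are shared. ITPKC, an inositol trisphosphate kinase gene, had 24, EZR, the gene of the cytoskeleton linker ezrin, and UPP1, a uridine phosphorylase gene, had 21 each, and ANXA2 and ITGA3, which encode annexin A2 and integrin alpha 3, had 19 each. NDRG1 had 1, 31 and 11 DRIP regions in KO and 2, 23 and 6 in WT with DMSO, at 2 h and at 6 h, so that it was high at 2 h and low before and after. CD9, a tetraspanin gene with 16 sites, followed the same order, with 1, 20 and 6 in KO and 3, 13 and 4 in WT. LAMA3 was highest at 6 h, with 13, 25 and 32 in KO and 8, 17 and 20 in WT, and LMO7 had few DRIP regions for its 70 sites, with 4, 8 and 12 in KO and 5, 7 and 9 in WT.

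Some sites near the starts of early response genes lay on DRIP regions that had a higher fold at 2 h. They were chosen after their values were seen, for a large ratio of 2 h to DMSO, and describe no wider set. HBEGF, which encodes a ligand of the EGF receptor, had a site 268 bp past its start with a ChIP–seq fold of 2.18. The DRIP region there had a fold of 4.57 with DMSO, 62.5 at 2 h and 6.51 at 6 h in KO, and 4.05, 50.7 and 6.43 in WT, so the 2 h value stood far above the others in both lines. At EGR1, with a site 474 bp past the start and a ChIP–seq fold of 3.35, the DRIP fold was 4.32, 49.4 and 8.57 in KO and 4.43, 17.5 and 6.89 in WT. At FOS, with a site 994 bp past the start and a fold of 2.62, it was 8.14, 33.9 and 12.8 in KO and 6.95, 24.2 and 12.2 in WT. DUSP6, a phosphatase that turns off the MAP kinase ERK, had a site at 720 bp with a fold of 2.73, and the DRIP fold was 25.8, 75.3 and 28.1 in KO and 22.3, 83.5 and 33.8 in WT. Other sites near the same starts, at 1567 bp in EGR1 and at 227 bp in FOS, overlapped no DRIP region in any list.

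At the start of LAMB3, where a site had a ChIP–seq fold of 2.53, the DRIP fold was 13.7, 48.3 and 38.8 in KO and 8.34, 38.8 and 37.3 in WT, so it stayed well above DMSO at 6 h. NFKBIA, which encodes an inhibitor of NF-κB, had a site 1248 bp past its start with a fold of 2.06. That site lay 14 bp from a region of the DMSO ChIP–seq list, at the rule's edge. The DRIP fold there was 20.3, 23.1 and 23.2 in KO and 9.69, 33.6 and 6.27 in WT. Whether the lines differ at NFKBIA was not tested, since each value is 1 library.

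Strong sites past gene ends varied in their DRIP regions. The JUNB site, which lay 490 bp from a region of the DMSO ChIP–seq list, overlapped DRIP regions in all 6 lists. Their folds were 8.36, 20.5 and 7.61 in KO and 4.05, 12.5 and 6.92 in WT with DMSO, at 2 h and at 6 h. The TIMP1 site 582 bp past the end overlapped a DRIP region at 2 h alone, at 13.3 in KO and 10.2 in WT. The EGR1 site past the end overlapped DRIP regions with folds of 2.95, 12.7 and 2.96 in KO and of 2.54 and 9.77 with DMSO and at 2 h in WT, with none called at 6 h. The NR4A1 site past the end overlapped a DRIP region only in the WT 2 h list, at a fold of 2.66. The PLAUR site overlapped one in all 6 lists, at 6.72, 8.04 and 4.77 in KO and 4.96, 10.2 and 8.84 in WT. At the strongest FOS, LMO7 and LAMA3 sites past the end, and at the TIMP1 site 1327 bp past its end, no DRIP list held a region. The strongest site with a WT DRIP region with DMSO and none at 2 h, apart from those beside regions called without doxycycline, was past the end of EHD4, an endocytosis gene, at a ChIP–seq fold of 3.68. It also lay within 2 kb of a gene start. KO went the other way there, with no DRIP region with DMSO and folds of 2.56 at 2 h and 2.86 at 6 h. No call means only that no region passed the threshold there.

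Gene lists chosen for this cell type and treatment held sites to unequal degrees, with 5.74% of all protein-coding genes as the background. The laminin-332 and hemidesmosome list, whose products anchor basal cells to the basement membrane, had 7 of 10 genes with a site and 166 sites in all, with LAMA3 and LAMB3 followed by ITGA3 (19) and PLEC (8). The same list had 5 of 10 genes with a DMSO-only region. ITGB4, an integrin chain of hemidesmosomes, had 1 site against 7 DMSO-only regions, and its DRIP regions numbered 25, 9 and 20 in KO and 25, 10 and 19 in WT with DMSO, at 2 h and at 6 h. The genes of this list are long, with a median of 56.7 kb against 27.5 kb for all protein-coding genes, and long genes have more room for sites.

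The urokinase, serpin and metalloprotease list had 6 of 21 genes with a site and none with a DMSO-only region, namely PLAUR (37), PLAU, which encodes urokinase (9), TIMP1 (7), SERPINB1 (3), SERPINB8 (2) and SERPINB5 (1). In this list 11 genes had more DRIP regions at 2 h than with DMSO in KO and 2 had fewer, and 13 and 2 in WT. Of the EGF receptor, its ligands and sheddases, 4 of 15 genes had a site, namely HBEGF (13), AREG, another ligand (3), RHBDF2 (2) and ADAM17, the sheddase of these ligands (1). EGFR itself had none inside and 2 past its end. ITGA5, the fibronectin receptor's alpha chain and 1 of 8 genes with a site among 24 of the focal adhesion and integrin list, had 5 sites and 5, 25 and 16 DRIP regions in KO and 1, 15 and 6 in WT. TNS4, a tensin gene of the same list, went the other way, with 1 site and 19 DMSO-only regions.

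Among early response genes, 8 of 27 other immediate early genes held a site and 4 held a DMSO-only region. Those with a site were MCL1, a survival factor (16), NR4A1 (14), ZFP36, an mRNA decay factor (4), EGR1 (3), IER2 (3), BTG2, KLF10 and ZFP36L2 (1 each). MCL1 also had 17 regions in the DMSO ChIP–seq list, and the IER2 sites lay 170 to 449 bp from a region of that list. MYC went the other way, with 0 sites and 7 DMSO-only regions. NR4A1 had 1, 14 and 2 DRIP regions in KO and 0, 8 and 4 in WT with DMSO, at 2 h and at 6 h. Of the AP-1 subunits, 3 of 15 genes held a site, FOS (3), JUN (1) and MAFK (1), and 6 of 15 did when the 10 kb past the end was included, against 8.6% of all protein-coding genes. FOSL1 and FOSL2 had 0 inside and 3 and 2 past their ends, and FOSB, JUND and ATF3 had none in either place. Of the MAPK feedback inhibitors, 2 of 18 had a site (DUSP6 with 3 and SPRED1 with 1), and of the NF-κB subunits and feedback genes 3 of 15 (NFKBIA with 3, TNIP1 and BCL3 with 1 each). A DMSO-only region lay in 2 of 15 AP-1 genes, 2 of 18 MAPK feedback inhibitors and 0 of 15 NF-κB genes.

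Stress and hypoxia genes had 9 of 15 genes with a site, but 67 of their 91 sites were in NDRG1. Tight and adherens junction genes had 5 of 12, with 3 sites each in CDH1, CTNNB1 and CTNNA1 and 1 in OCLN. Basal keratin and basal epithelial genes had 4 of 16, with 7 sites in KRT17 and 6 in JUP, against 6 of 16 with a DMSO-only region. KRT5, a defining basal keratin, had no site and 7 regions in the DMSO list, where KRT17 had none.

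Of the remaining lists, the luminal list had 1 of 13 genes with a site (MUC1), the chemokine, interleukin and colony-stimulating factor list 1 of 19 (CSF3, 3 sites), and housekeeping genes 4 of 20 (ACTB and YWHAZ with 3, GAPDH with 2 and PPIA with 1), against 5 of 20 with a DMSO-only region. The protein kinase C and D genes, most of which encode kinases that phorbol esters activate, had 0 of 12 with either kind of region, although they are the longest of the lists at a median of 144 kb. In the APOBEC3 cluster only APOBEC3B had a site, 1 of the 6 regions that the PMA list held there. The DMSO list held 5 and the list without doxycycline 3, and reads of the A3B-eGFP transgene cannot be told apart from those of the gene itself. Of 20 genes of other tissues, 3 held a site. SYN1, a neuronal gene, had 10, and all 10 lay in or just past TIMP1, which sits inside SYN1 on the opposite strand. Of 8 basal markers, all had a WT DMSO DRIP region, but so did 9 of 13 markers of other cells, so DRIP calls do not mark the cell type, and the lists hold no expression level that could.

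The 16 genes that the study names beside its DRIP–seq and ChIP–seq results held 7 of the sites. A site lay in 4 of these genes (25%, against 5.74% of all protein-coding genes), namely FOS (3), GAPDH (2), GADD45A (1) and PHLDA1 (1). The sites in GAPDH, GADD45A and PHLDA1 were weak, with a −log10 q of 2.07 to 3.79 against a median of 4.59 over all sites. A GAPDH site and the GADD45A site lay 76 and 198 bp from a region of the DMSO ChIP–seq list. The study treats GAPDH as a gene that does not respond to PMA. JUNB, HSPA8 and PIM3 had sites past the end alone. With the 10 kb past the end included, 7 of the 16 had a site (43.8%, against 8.6% of all protein-coding genes). The study picked these genes on such libraries, so they are no independent evidence.

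TGANTCA, the AP-1 motif, searched on both strands within the 500 bp, was in 670 of 3999 sites (16.8%, interval 15.6 to 17.9), in 17.8% of DMSO-only regions, in 14.8% of regions shared with DMSO, in 11.3% of WT 2 h DRIP regions and in 14.8% of all 500 bp tiles of chromosomes 1 to 22 and X without gaps in sequence. The strict motif, TGACTCA or TGAGTCA as read on the other strand, was in 12.1% of sites, 13.3% of DMSO-only regions and 7.40% of tiles. Within the sites the motif was most frequent in single ones (20.2%) and least in runs of 5 or more (13.1%), and more frequent far from genes (21.1%) than near starts (13.0%). Of its 867 copies, 200 (23.1%) lay within 50 bp of the middle of the region and 154 (17.8%) in the outermost 50 bp. DMSO-only regions had 22.4% and 16.2%.

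The sites were 53.1% G and C with 13.8 CpG each, DMSO-only regions 55.6% with 19.5 CpG, WT 2 h DRIP regions 46.1% and the genome tiles 40.9%. GGGCGG, the box bound by SP1, was in 26.9% of sites, against 36.5% of DMSO-only regions and 6.43% of tiles, and the G-quadruplex pattern was in 22.3%, against 24.3% and 5.10%. TGACGTCA, the cyclic AMP response element, was in 0.425% of sites, against 0.839% of DMSO-only regions and 0.176% of tiles, GGAATG in 25.7%, against 25.2% and 25.0%, CACGTG in 9.40%, against 10.8% and 4.55%, the κB motif in 16.7%, against 17.4% and 6.20%, and the CArG box in 2.03%, against 1.75% and 2.98%. Of all cytosines on either strand, 5.16% lay in the words preferred by A3B in the sites, against 4.56% in DMSO-only regions, 6.41% in WT 2 h DRIP regions and 7.94% in the tiles. The order of these shares was the reverse of the order in G and C content.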

How the data were processed

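The 9 immunoprecipitations of 18 samples each had 1 deposited list; the 9 inputs were not used on their own. The authors trimmed reads with cutadapt 1.13, aligned them to hg38 with STAR 2.6.1d, kept proper pairs, removed duplicates, removed blacklisted regions and called summits with MACS2 against each input at a q of 0.01 (version 2.2.6 in the submitters' notes, another in the study's methods). In each deposited list, pileup is a signal, namely how many fragments cover the summit, the fold enrichment is the authors' ratio over local background, and the −log10 q is the authors' own. Every region was 500 bp. Reads per library are not given in the sources used here, so depth is unknown. Chromosome M was not used. Start positions may count from 0 or 1, a shift of 1 bp.

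Lists shared a region where intervals met by at least 1 bp (checked with bedtools 2.31.1). Regions were placed by their middle in GENCODE 44, and sequences were read from hg38 with pysam 0.24.0. Overlap steps were tested on simulated regions. The κB motif, CArG box and G-quadruplex pattern (4 runs of at least 3 G with loops of up to 7 bases) were searched on both strands. The rule for named genes took the 10 sites highest by −log10 q and by fold, the 20 genes with most sites, up to 4 genes of each list, and the strongest sites by DRIP class; other list members with a site, and genes picked after their values were seen, are also named. The members and lists were chosen with earlier results of these data known. Alternatives were a −log10 q of at least 5, other overlaps, removal within 1 kb, equal list lengths, 1 site per run, a start within 1 kb and the strict motif. Some genes and sequences that the rule would name are not reported here.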

Additional observations from a re-analysis of the deposited data

How the results depend on the processing

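The number of sites was 1807 at a −log10 q of at least 5 and 2414 with 1 site per run. The share overlapping a WT 2 h DRIP region (36.2%) was 39.0% at a −log10 q of at least 5, 34.3% with removal within 1 kb, 33.7% with 1 site per run, 28.7% with DRIP −log10 q of at least 5, 31.5% with equal DRIP list lengths and 22.0% with DRIP overlaps of 250 bp or more. The share at 2 h alone was 48.1% in KO and 44.3% in WT at a −log10 q of at least 5, 41.2% and 37.4% with removal by 250 bp or more, 48.7% and 43.9% with removal within 1 kb, 40.4% and 37.4% with removal by the DMSO list only, 36.7% and 34.0% with 1 site per run, 38.2% and 34.7% with equal DRIP list lengths, and 48.3% and 43.0% with DRIP overlaps of 250 bp or more. It was 47.4% in KO with DRIP −log10 q of at least 5, and 46.3% in KO and 42.0% in WT without sites within 10 kb of a region called without doxycycline. The share with the AP-1 motif was 19.0% with 1 site per run and 12.1% with the strict motif. Leaving out sites near regions called without doxycycline, and leaving out the 10 largest runs, were chosen after seeing the data. The cause of these moves was not tested. In all 7 settings in which both sets were compared, the share at 2 h alone was higher in PMA-only sites than in DMSO-only regions, in both lines. Genes with 5 or more sites numbered 50 at a −log10 q of at least 5 and 47 with 1 site per run. No paired analysis was possible because the result comes from no test, with 1 library a condition. The files give no depth, so differences of list length and depth between conditions cannot be told apart.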
